A study of Mus musculus with 16 samples.

Results

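Genes that define the plasmacytoid dendritic cell (pDC), 8 in number, were followed through cultured mouse dendritic cell (DC) progenitors: the transcription factor genes Tcf4, Spib, Bcl11a and Runx2, and the marker genes Siglech, Ccr9, Ly6d and Pacsin1. The 8 genes were chosen by name, as known regulators and markers of the pDC lineage, and with earlier results of these data known. A gene was read from the probe set that carries its symbol alone, and 7 of the 8 had such a probe set among the 19938 genes tested. Runx2 was not analysed here.

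Monocyte and DC progenitors (MDP) or common DC progenitors (CDP) had been sorted from the bone marrow of wild-type (WT) or IkL/L mice. The IkL/L mice carry a hypomorphic allele of Ikzf1 in every cell, so that less of the DNA-binding protein Ikaros is made, and the study's mice were used at 6 to 9 weeks of age. The sorted CD45.2+ cells were cultured for 24 h with unfractionated CD45.1+ bone marrow cells and medium conditioned by Flt3L-producing cells, either with 5 µM of the γ-secretase inhibitor (GSI) Compound E or with its vehicle DMSO. The CD45.2+ cells were then sorted again for their RNA. This gave 8 groups of 2 arrays each, 16 in all, and every group shared the support cells and the Flt3L. The names MDP and CDP refer to the cells put into culture and not to the stage recovered from it, and the RNA was amplified from nanogram amounts. The study describes the arrays of a condition as coming from separate mice, and whether arrays that share a replicate number across groups also share a mouse is not stated. In such bulk RNA, fewer cells of a type and less RNA per cell cannot be told apart.

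pDCs are the DCs that answer viral nucleic acids with large amounts of type I interferon, and they arise from Flt3L-dependent progenitors in the bone marrow. The E protein encoded by Tcf4 is their master regulator. It works with Bcl11a, Spib and Runx2 and is opposed by Id2, which holds E proteins off DNA and favours conventional DCs (cDC). Siglech encodes a pDC surface lectin, Ccr9 a chemokine receptor of mature pDCs, Ly6d a surface protein of early lymphoid and pDC-committed progenitors, and Pacsin1 an adaptor protein of endocytosis used in pDC interferon production.

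Promoter sequence from RefSeq (GRCm38.p6) was found for 6 of the 8 genes. The 250 bases before the start are shown for Spib, Siglech and Ccr9, because these are genes with a promoter entry whose signal in every CDP array lay above that in every MDP array. Capitals mark E-boxes (CANNTG, the letters bound by E proteins), the Ikaros core TGGGAA and the RUNX site TGTGGT, each searched on both strands and read 5′ to 3′ on the strand of the gene.
Spib (chr7:44532072-44532321, minus strand): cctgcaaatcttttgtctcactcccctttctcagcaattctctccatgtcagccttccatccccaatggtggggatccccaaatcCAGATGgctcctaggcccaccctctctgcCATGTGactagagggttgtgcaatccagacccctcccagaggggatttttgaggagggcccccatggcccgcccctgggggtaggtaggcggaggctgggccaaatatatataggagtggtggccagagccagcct
Siglech (chr7:55767934-55768183, plus strand): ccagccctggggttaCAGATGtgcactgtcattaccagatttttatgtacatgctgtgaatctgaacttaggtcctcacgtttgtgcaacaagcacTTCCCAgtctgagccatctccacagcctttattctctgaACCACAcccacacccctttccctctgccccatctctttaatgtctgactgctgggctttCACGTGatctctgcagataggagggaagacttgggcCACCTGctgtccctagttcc
Ccr9 (chr9:123766961-123767210, plus strand): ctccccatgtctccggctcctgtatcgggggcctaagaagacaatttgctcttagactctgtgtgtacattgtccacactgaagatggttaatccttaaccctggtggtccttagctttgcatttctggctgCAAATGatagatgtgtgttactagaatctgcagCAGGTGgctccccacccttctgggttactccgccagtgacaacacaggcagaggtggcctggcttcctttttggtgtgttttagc
The Spib sequence held 2 E-boxes, which begin 165 and 136 bases before the start. The Siglech sequence held 3 E-boxes, at 235, 56 and 20 bases before the start, with a reverse match to the Ikaros core at 154 bases and a reverse match to the RUNX site at 115 bases. The Ccr9 sequence held 2 E-boxes, at 118 and 85 bases before the start. Of 32851 promoter stretches of the same length, 66.2% held an E-box, 21.6% the Ikaros core and 14% the RUNX site, so these matches are common and are given as a description. The other letters searched were GAGGAA, an ETS site, found in 23.3% of the stretches, and GTGGGAA, an RBPJ site that contains the Ikaros core, found in 5.42%. Neither was in the 3 sequences shown.

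The first question was whether these genes differ between cells cultured from MDPs and from CDPs. Values are deposited log2 signals, given for arrays 1 and 2 of a group, and levels are compared within a gene and not between genes. The regulators and markers were higher in CDP cultures: averaged over genotype and treatment, 6 of the 7 measured genes rose from MDP to CDP and none fell (limma, adjusted p under 0.05 over all genes). Of all 19938 genes tested, 4.72% rose and 8.74% changed in either direction in this comparison. The median difference of the 7 genes was 1.17 on the log2 scale, against -0.02 for all genes.

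**Figure D1:**
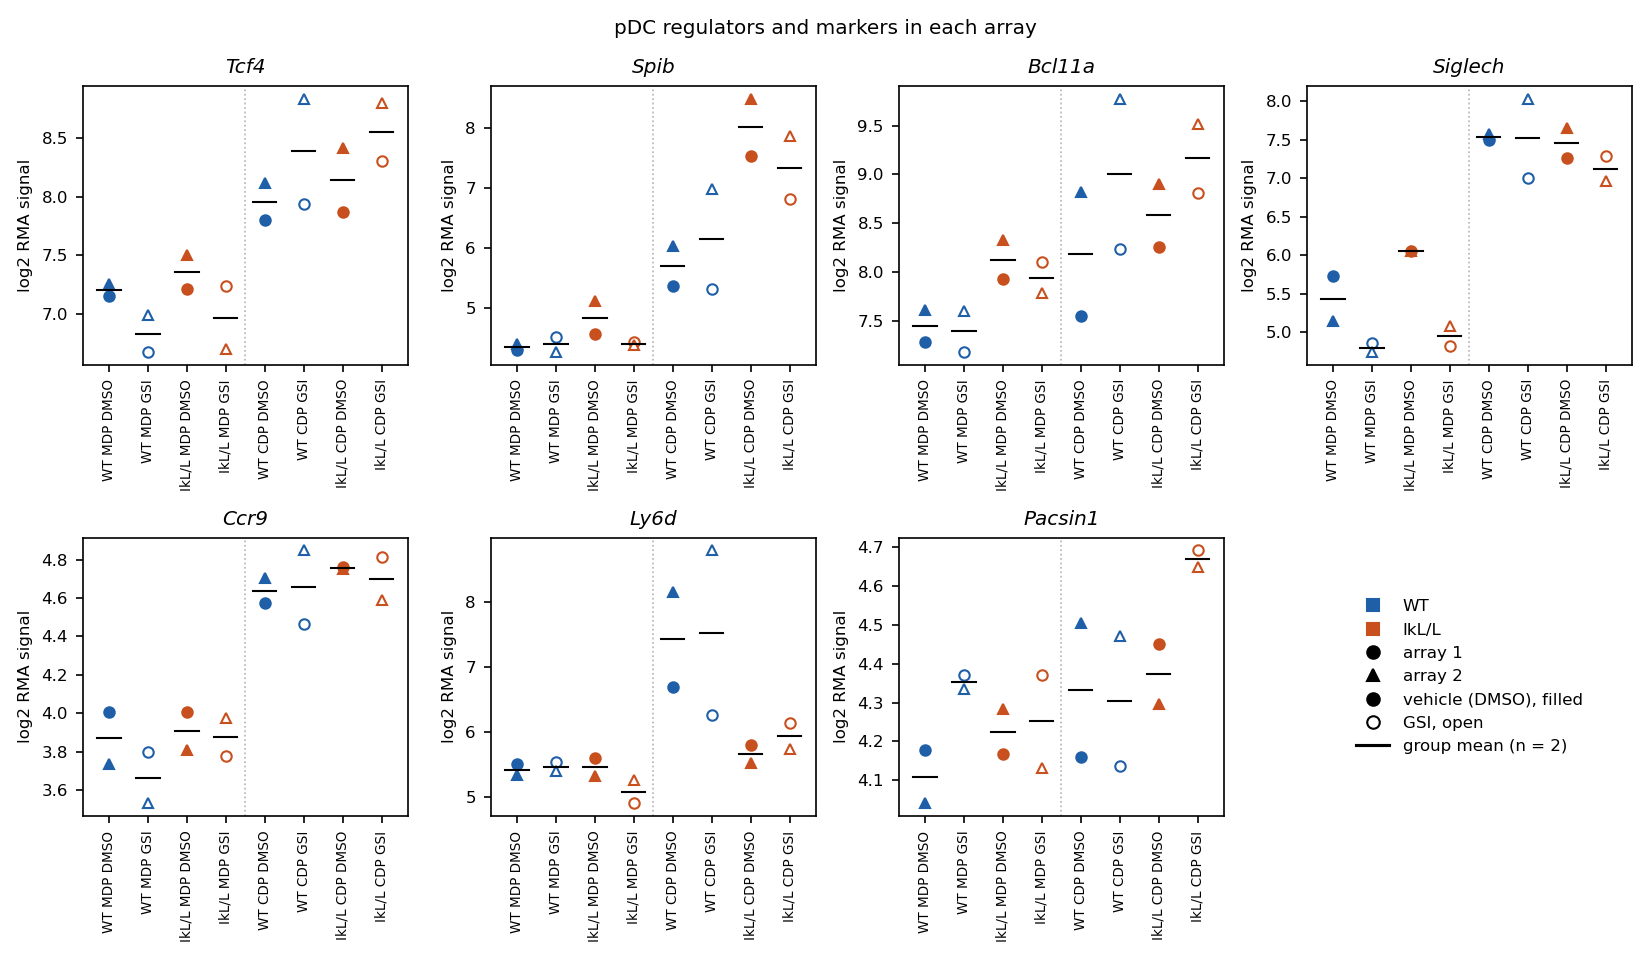
Deposited log2 RMA signal (vertical axis, a separate range for each gene) of the 7 measured genes in each of the 16 arrays, by group (horizontal axis). Circles are arrays 1, triangles arrays 2, filled symbols vehicle, open symbols GSI, and bars the group means (n = 2). The 8 CDP arrays (right of the dotted line) lie above the 8 MDP arrays for Tcf4, Spib, Siglech and Ccr9, and the WT CDP arrays of Ly6d (6.26 to 8.79) lie above its other arrays.

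Tcf4 gave, in WT MDPs, 7.15 and 7.26 with vehicle and 6.67 and 6.99 with GSI, and in IkL/L MDPs, 7.22 and 7.50 with vehicle and 7.24 and 6.70 with GSI. In the CDP cultures it gave 7.80 and 8.12 in WT with vehicle, 7.94 and 8.84 with GSI, 7.87 and 8.41 in IkL/L with vehicle, and 8.30 and 8.81 with GSI. The lowest CDP array thus lay above the highest MDP array. The averaged difference was 1.17 ± 0.16 (SE), a 2.25-fold higher signal, with limma's adjusted p = 0.0013. The 4 CDP groups overlapped their neighbours in the order of levels, and so did the 4 MDP groups, with the only gap between vehicle-treated WT CDPs and vehicle-treated IkL/L MDPs. Taken singly, the difference was 0.75 and 0.78 with vehicle and 1.56 and 1.59 with GSI, in WT and IkL/L cells respectively. Only the last of these passed the test (adjusted p = 0.0275).

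Spib, an ETS-family factor of pDCs and B cells, had the widest range of the 7 genes. In MDPs it lay between 4.27 and 5.11, with 4.30 and 4.40 (vehicle) and 4.52 and 4.27 (GSI) in WT cells, and 4.56 and 5.11 (vehicle) and 4.43 and 4.38 (GSI) in IkL/L cells. In WT CDPs it gave 5.36 and 6.04 with vehicle and 5.31 and 6.99 with GSI. In IkL/L CDPs it gave 7.53 and 8.49 with vehicle and 6.81 and 7.87 with GSI. The 8 CDP arrays lay above the 8 MDP arrays, and the averaged difference was 2.30 ± 0.26 (SE), with limma's adjusted p = 0.0005. No fold is given, since 7 of the 8 MDP arrays lay at or below the median of their array over all probe sets, and the values alone do not show whether such a signal is above background. Within IkL/L cells the difference was 3.17 with vehicle (adjusted p = 0.0142) and 2.93 with GSI (adjusted p = 0.0175). Within WT cells it was 1.35 and 1.75, and neither passed (adjusted p = 0.797 and 0.326).

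Bcl11a, a zinc finger repressor needed for pDC and B cell development, differed less clearly. WT MDPs gave 7.28 and 7.62 with vehicle and 7.18 and 7.60 with GSI, and IkL/L MDPs gave 7.93 and 8.33 with vehicle and 8.10 and 7.79 with GSI. The CDP values were 7.55 and 8.82 in WT with vehicle, 8.24 and 9.78 with GSI, 8.26 and 8.90 in IkL/L with vehicle and 8.81 and 9.52 with GSI. CDP and MDP arrays overlapped, since 3 CDP arrays (7.55, 8.24 and 8.26) lay below the highest MDP array. The averaged difference of 1.01 ± 0.26 (SE) passed with limma's adjusted p = 0.0368, and none of the 4 single differences did.

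Among the surface markers, Siglech had signals of 5.73 and 5.14 with vehicle and 4.86 and 4.75 with GSI in WT MDPs, and of 6.06 and 6.06 with vehicle and 4.82 and 5.08 with GSI in IkL/L MDPs. Its CDP values were 7.50 and 7.57 in WT with vehicle, 7.01 and 8.03 with GSI, 7.26 and 7.66 in IkL/L with vehicle and 7.28 and 6.96 with GSI. CDP and MDP arrays were again apart, by 2.10 ± 0.15 (SE) on average, 4.28-fold, with limma's adjusted p = 2.94e-05. Siglech was the only one of the 7 genes to pass in each single condition, with differences of 2.10 (adjusted p = 0.0324) and 2.72 (adjusted p = 0.0053) in WT cells with vehicle and GSI, and of 1.4 (adjusted p = 0.0446) and 2.18 (adjusted p = 0.0039) in IkL/L cells. In these 4 conditions 0.0953%, 0.166%, 1.28% and 1.65% of all genes rose.

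Ccr9 stayed low, between 3.53 and 4.85, while the medians of the arrays over all probe sets ran from 4.52 to 4.65. The WT MDP arrays held 4.0 and 3.74 with vehicle and 3.80 and 3.53 with GSI, and the IkL/L MDP arrays 4.0 and 3.81 with vehicle and 3.77 and 3.97 with GSI. The CDP arrays held 4.57 and 4.70 in WT with vehicle, 4.46 and 4.85 with GSI, 4.76 and 4.75 in IkL/L with vehicle and 4.81 and 4.59 with GSI. The difference between CDPs and MDPs was small but larger than the spread between arrays, 0.86 ± 0.08 (SE), with limma's adjusted p = 0.0001. No fold is given here either, since all 8 MDP arrays and 2 CDP arrays lay at or below their array's median. It passed in GSI-treated WT cells (0.99, adjusted p = 0.0415) and in IkL/L cells with vehicle (0.85, adjusted p = 0.0227) and GSI (0.83, adjusted p = 0.0213), and in vehicle-treated WT cells it was 0.77 (adjusted p = 0.168).

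Ly6d was the marker that separated WT CDPs from the rest. WT CDPs gave 6.69 and 8.15 with vehicle and 6.26 and 8.79 with GSI, against 5.80 and 5.52 in vehicle-treated and 6.14 and 5.74 in GSI-treated IkL/L CDPs. MDPs gave 5.51 and 5.34 in WT with vehicle, 5.54 and 5.40 with GSI, 5.61 and 5.32 in IkL/L with vehicle and 4.91 and 5.26 with GSI. The averaged difference between CDPs and MDPs was 1.28 ± 0.33 (SE), with limma's adjusted p = 0.0393. In WT cells it was 2.00 and 2.05 with vehicle and GSI, and in IkL/L cells 0.20 and 0.85, and none of these passed alone.

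Pacsin1 lay between 4.04 and 4.69 in all arrays. All 8 MDP arrays and 6 of the 8 CDP arrays lay at or below their array's median. Whether such a signal is above background cannot be read from the values alone. In WT MDPs it gave 4.18 and 4.04 with vehicle and 4.37 and 4.34 with GSI, in IkL/L MDPs 4.17 and 4.28 with vehicle and 4.37 and 4.13 with GSI, and in CDPs 4.16 and 4.51 in WT with vehicle, 4.14 and 4.47 with GSI, 4.45 and 4.30 in IkL/L with vehicle and 4.69 and 4.65 with GSI. Its averaged difference was 0.19, with a 95% interval from 0.03 to 0.34 (adjusted p = 0.157).

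**Figure D2:**
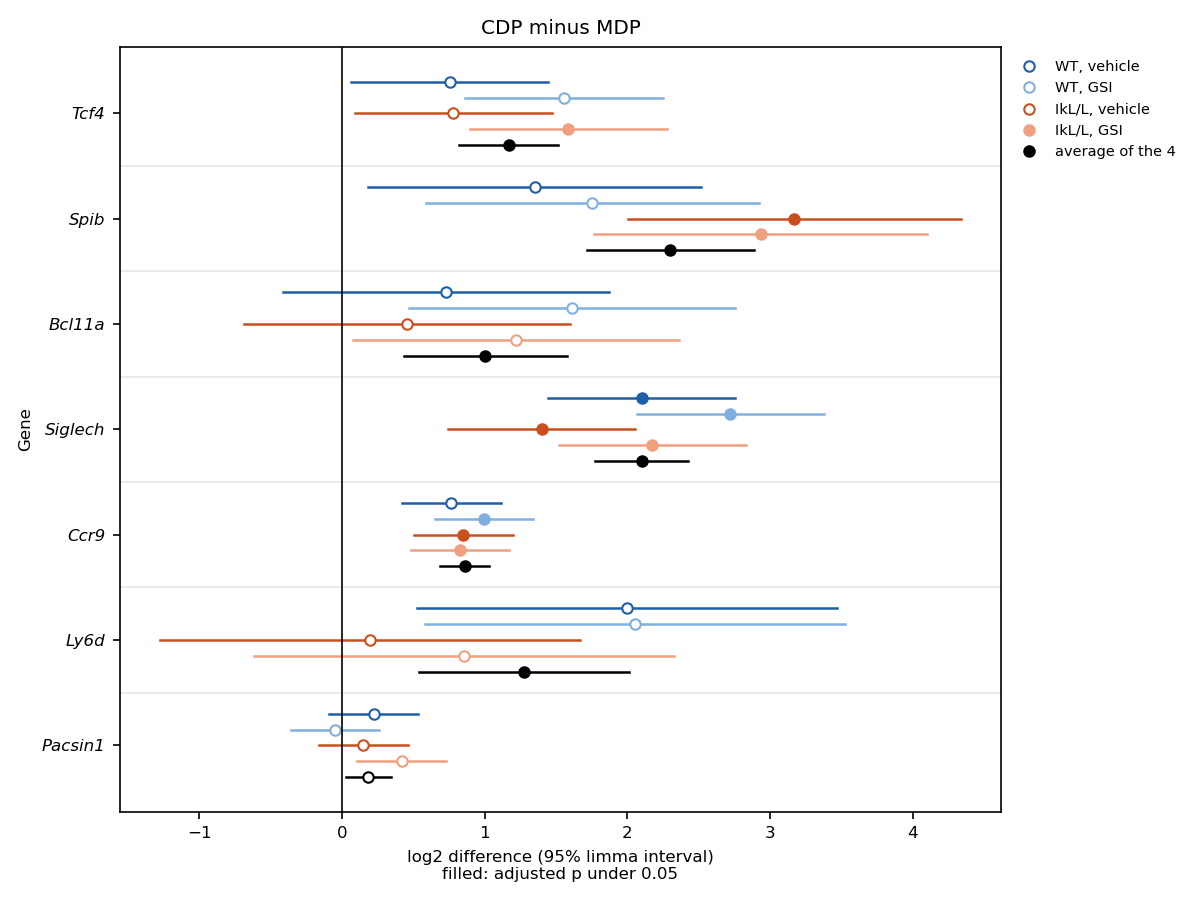
Difference in log2 signal between CDP and MDP cultures (horizontal axis, points with limma 95% intervals) for the 7 measured genes, in each genotype and treatment and averaged over the 4. Filled points have an adjusted p under 0.05. Siglech is filled in all rows, and the averages of 6 genes lie to the right of 0 and are filled, from 0.86 for Ccr9 to 2.30 for Spib.

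For 4 of the 7 genes, Tcf4, Spib, Siglech and Ccr9, all 8 CDP arrays lay above all 8 MDP arrays. Of all genes, 0.747% were higher in this way and 1.02% did not overlap in either direction. Their averaged differences passed whichever of the 16 arrays was left out, with adjusted p of at most 0.0053, 0.0024, 0.0002 and 0.0007. The averaged difference of Bcl11a no longer passed on leaving out any 1 of 10 arrays (adjusted p up to 0.092), and kept passing without either vehicle-treated or GSI-treated WT CDP array 1, the GSI-treated WT MDP array 2, the GSI-treated WT CDP array 2, or array 1 of either IkL/L CDP group. That of Ly6d no longer passed on leaving out any 1 of 13 arrays (adjusted p up to 0.097), and kept passing only without the vehicle-treated WT CDP array 1 or either GSI-treated WT CDP array.

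Calls within a single genotype and treatment rested on fewer arrays. Without any 1 of the 4 arrays compared, Tcf4 no longer passed in GSI-treated IkL/L cells (adjusted p up to 0.223), nor did Ccr9 in IkL/L cells with vehicle (up to 0.148) or GSI (up to 0.216). Spib in IkL/L cells no longer passed without either MDP array or CDP array 2, with vehicle (up to 0.145) and with GSI (up to 0.158). Siglech no longer passed with GSI without MDP array 1, in WT (0.0515) and IkL/L cells (0.0584). With vehicle, Siglech in WT cells passed only without either GSI-treated WT CDP array (otherwise up to 0.267), and in IkL/L cells only without either of these or either vehicle-treated WT MDP array (otherwise up to 0.308). Ccr9 in GSI-treated WT cells passed only without either vehicle-treated WT CDP array or the GSI-treated WT CDP array 1 (otherwise up to 0.263). Without that last array, Tcf4 (2.01, adjusted p = 0.0257) and Ly6d (3.32, adjusted p = 0.0176) passed in GSI-treated WT cells.

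The arrays within a group were not equally close. Replicate pairs correlated at 0.983 to 0.996 over all genes, and the lowest value belonged to GSI-treated WT CDPs. For 6 of the 7 genes this group also held the widest gap between replicates, 0.90 for Tcf4, 1.67 for Spib, 1.53 for Bcl11a, 1.03 for Siglech, 0.39 for Ccr9 and 2.54 for Ly6d. In both WT CDP groups array 2 was the higher one for each of the 7 genes. The mean log2 signal of 12 monocyte and macrophage markers was 8.53 (vehicle) and 8.81 (GSI) in WT CDP array 1. In array 2 it was 7.87 and 7.35. That of 15 progenitor markers was 8.70 in the vehicle-treated WT CDP array 2 and 7.40 to 7.82 in the other CDP arrays. The part of these markers in the values of the 7 genes was not tested.

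Genotype was the next comparison, since IkL/L mice are known for a selective shortage of pDCs. None of the 7 genes passed in any of the 4 single comparisons of IkL/L with WT cells (limma, adjusted p), where 1.18% of all genes were called in vehicle-treated CDPs, 2.15% in GSI-treated CDPs, 0.105% in vehicle-treated MDPs and 0.115% in GSI-treated MDPs. At an unadjusted p under 0.05 these comparisons held 2, 3, 0 and 0 of the 7 genes. None passed in the average over stage and treatment either, where 6% of all genes did and 2 of the 7 had an unadjusted p under 0.05. The share of all genes at an unadjusted p under 0.05 was not computed, so these counts are a description. The Ikzf1 signal itself, read from 1 probe set, ran from 8.90 to 9.20 in the 8 WT arrays and from 8.36 to 8.94 in the 8 IkL/L arrays, an averaged difference of -0.40 ± 0.07 (SE) with adjusted p = 0.0067.

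The largest genotype differences were those of Spib and Ly6d in CDPs, of opposite sign. Spib differed by 2.31 ± 0.53 (SE) with vehicle, 4.95-fold, but its adjusted p was 0.0769 in limma. This difference ran from 1.83 to 2.79 on leaving out 1 array. Its averaged genotype difference was 1.00 (adjusted p = 0.0537), and ran from 0.79 to 1.21 on leaving out 1 array. With GSI the difference was 1.19 ± 0.53 (SE, adjusted p = 0.462) and the arrays overlapped, because 1 WT array reached 6.99 and 1 IkL/L array lay at 6.81. It fell to 0.35 without the GSI-treated WT CDP array 1 and rose to 2.03 without array 2, and neither passed (adjusted p = 0.937 and 0.0961). Over both treatments, a comparison chosen after the values were seen, Spib was 1.75 ± 0.37 (SE) higher in IkL/L CDPs, 3.36-fold, with adjusted p = 0.0223, where 3.21% of all genes rose and 5.13% changed. That call was lost without the vehicle-treated WT CDP array 1 (1.58, adjusted p = 0.0645), without the vehicle-treated IkL/L CDP array 2 (1.51, adjusted p = 0.0866) and without the GSI-treated IkL/L CDP array 2 (1.48, adjusted p = 0.0876), and with the 8 CDP arrays fitted alone the adjusted p was 0.137. In MDPs the Spib differences were 0.49 with vehicle and 0.01 with GSI. The genotype difference in CDPs exceeded that in MDPs by 1.50 ± 0.53 (SE), with unadjusted p = 0.0168 and limma's adjusted p = 0.525, where 0.562% of all genes passed.

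Ly6d differed by -1.76 ± 0.66 (SE) with vehicle, 3.39-fold lower in IkL/L CDPs, and by -1.59 ± 0.66 (SE) with GSI, 3.01-fold lower, with adjusted p = 0.38 and 0.415. All 4 IkL/L CDP arrays (5.52 to 6.14) lay below all 4 WT CDP arrays (6.26 to 8.79), and 5.74% of all genes were lower in this way and 11.1% did not overlap in either direction. The 4 arrays of a genotype may again come from 2 mice. Over both treatments the difference was -1.68 ± 0.47 (SE), with limma's adjusted p = 0.0766. It passed without the vehicle-treated WT CDP array 1 (-2.04, adjusted p = 0.0415) and without the GSI-treated WT CDP array 1 (-2.31, adjusted p = 0.0029), which are the lower arrays of their groups. Without the latter array it also passed with GSI alone (-2.86, adjusted p = 0.0231) and in the average over all cells (-1.24, adjusted p = 0.0077), which was -0.92 with all arrays (adjusted p = 0.157). Without both of these arrays the difference in CDPs was -2.67, and the lone arrays 2 are then assumed to vary like the other groups. Leaving out the higher arrays had the opposite effect. Without the vehicle-treated WT CDP array 2 the vehicle difference was -1.03 (adjusted p = 0.949), and without the GSI-treated WT CDP array 2 the GSI difference was -0.32 (adjusted p = 0.942), the difference over both treatments -1.04 (adjusted p = 0.0933) and the average over all cells -0.61 (adjusted p = 0.123). Without both arrays 2 the difference over both treatments was -0.68 (adjusted p = 0.0544). In MDPs the difference over both treatments was -0.17. The genotype difference in CDPs lay 1.50 below that in MDPs, a value of -1.50 ± 0.66 (SE) with unadjusted p = 0.0463 and limma's adjusted p = 0.764, and it ran from -2.13 to -0.87 on leaving out 1 array.

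**Figure D3:**
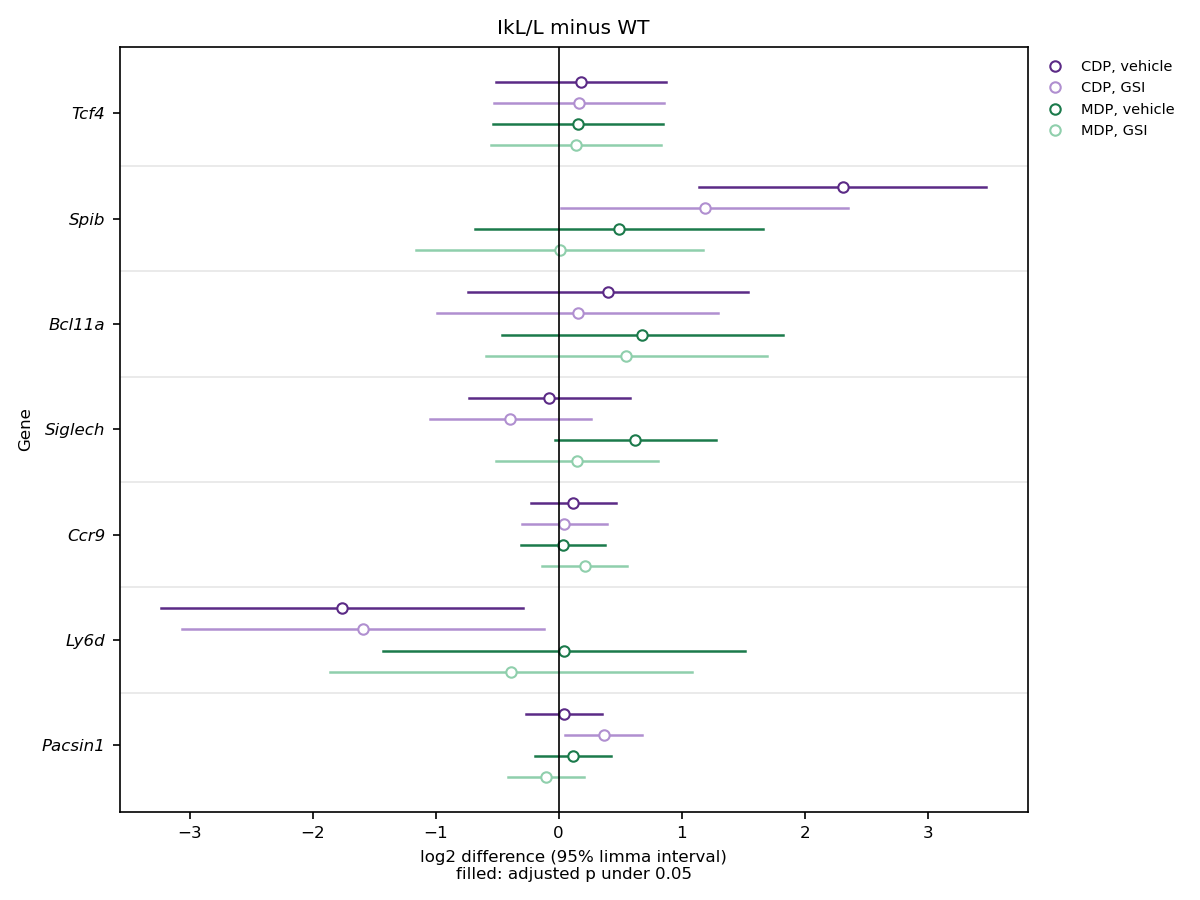
Difference in log2 signal between IkL/L and WT cells (horizontal axis, points with limma 95% intervals) for the 7 measured genes in CDPs and MDPs with vehicle or GSI. No point is filled, that is, none has an adjusted p under 0.05. Spib lies farthest to the right in vehicle-treated CDPs (2.31) and Ly6d farthest to the left (-1.76), and Tcf4 lies between 0.14 and 0.18 in all 4.

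Tcf4 moved little with genotype, by 0.18 and 0.17 in CDPs and 0.15 and 0.14 in MDPs with vehicle and GSI. Its averaged genotype difference was 0.16, with a 95% interval from -0.19 to 0.51 (limma's adjusted p = 0.659). Siglech gave 0.07 on average, with an interval from -0.25 to 0.40. In vehicle-treated MDPs it was 0.62 higher in IkL/L cells (limma's unadjusted p = 0.0604, adjusted p = 0.9999). Ccr9 gave 0.10 (interval -0.07 to 0.27) and Pacsin1 0.10 (interval -0.05 to 0.26).

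For Bcl11a, all 4 IkL/L MDP arrays (7.79 to 8.33) lay above all 4 WT MDP arrays (7.18 to 7.62). Of all genes, 3.77% were higher in this way and 6.11% did not overlap in either direction. The difference over both treatments, again a comparison chosen after the values were seen, was 0.61 ± 0.36 (SE), with limma's adjusted p = 0.697, where 0.597% of all genes passed. In CDPs the Bcl11a difference was 0.28 and the arrays overlapped.

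The third question was the response to GSI, which blocks the cleavage of Notch receptors and of other γ-secretase substrates. None of the 7 genes passed in WT MDPs, WT CDPs, IkL/L MDPs or IkL/L CDPs, nor in the average over the 4 (limma, adjusted p). Few genes did anywhere: 0% of all genes in both MDP comparisons, 0.01% in WT CDPs, 0.00502% in IkL/L CDPs and 0.306% in the average. At an unadjusted p under 0.05, Siglech was the only one of the 7 genes, in IkL/L MDPs and in the average. The share of all genes at that threshold was not computed.

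The largest GSI difference was that of Siglech in IkL/L MDPs, and over both genotypes the 4 GSI-treated MDP arrays (4.75 to 5.08) lay below the 4 vehicle-treated ones (5.14 to 6.06). Of all genes, 1.91% were lower in this way and 4.4% did not overlap in either direction. The difference was -0.64 ± 0.30 (SE) in WT MDPs (-0.93 to -0.34 on leaving out 1 array) and -1.11 ± 0.30 (SE) in IkL/L MDPs, the latter 2.16-fold lower with unadjusted p = 0.0035. In CDPs it was -0.02 in WT and -0.33 in IkL/L cells, and the averaged value was -0.52 ± 0.15 (SE) with limma's adjusted p = 0.201. Without the GSI-treated WT CDP array 2, the highest Siglech array of all, the averaged value was -0.65 with adjusted p = 0.047.

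The GSI differences of Tcf4, none of which passed, were -0.37 in WT and -0.39 in IkL/L MDPs, and 0.43 in WT and 0.41 in IkL/L CDPs, each with SE 0.31. The sign in WT CDPs turned with 1 array, since the value was -0.02 without the GSI-treated array 2 and 0.88 without the GSI-treated array 1, and the IkL/L MDP value ran from -0.66 to -0.12. Taken between arrays of the same number, GSI minus vehicle was 0.14 and 0.72 in WT CDPs and 0.43 and 0.39 in IkL/L CDPs. In MDPs these values were -0.48 and -0.27 in WT and 0.03 and -0.81 in IkL/L cells. Whether such arrays share a mouse is not stated. The CDP response exceeded the MDP response by 0.80 ± 0.31 (SE) in a comparison chosen after the values were seen, with unadjusted p = 0.0269 and limma's adjusted p = 0.9999. The same difference was 0.70 for Siglech (unadjusted p = 0.0393) and 0.82 for Bcl11a (unadjusted p = 0.139), and 0% of all genes passed after adjustment. Averaged over all cells, Tcf4 gave 0.02 with an interval from -0.33 to 0.37.

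The other GSI differences had 95% intervals that held 0. In CDPs, Bcl11a gave 0.83 in WT and 0.58 in IkL/L cells. The arrays of the 2 treatments overlapped in both genotypes. On leaving out 1 array the WT value ran from 0.06 to 1.59. Taken between arrays of the same number, which are not known to share a mouse, it was 0.69 and 0.96 in WT CDPs. In IkL/L CDPs the Bcl11a values taken in this way were 0.55 and 0.62. Spib gave 0.45 in WT and -0.67 in IkL/L cells. Its same-number values were -0.05 and 0.95 in WT and -0.72 and -0.62 in IkL/L cells. The difference between the 2 genotypes in the Spib response was -1.12, with a 95% interval from -2.77 to 0.53, in a comparison where 0% of all genes passed. Pacsin1 gave 0.30 in IkL/L CDPs (limma's unadjusted p = 0.06). Ccr9 lay between -0.21 and 0.02 and Ly6d between -0.38 and 0.27 in the 4 comparisons.

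**Figure D4:**
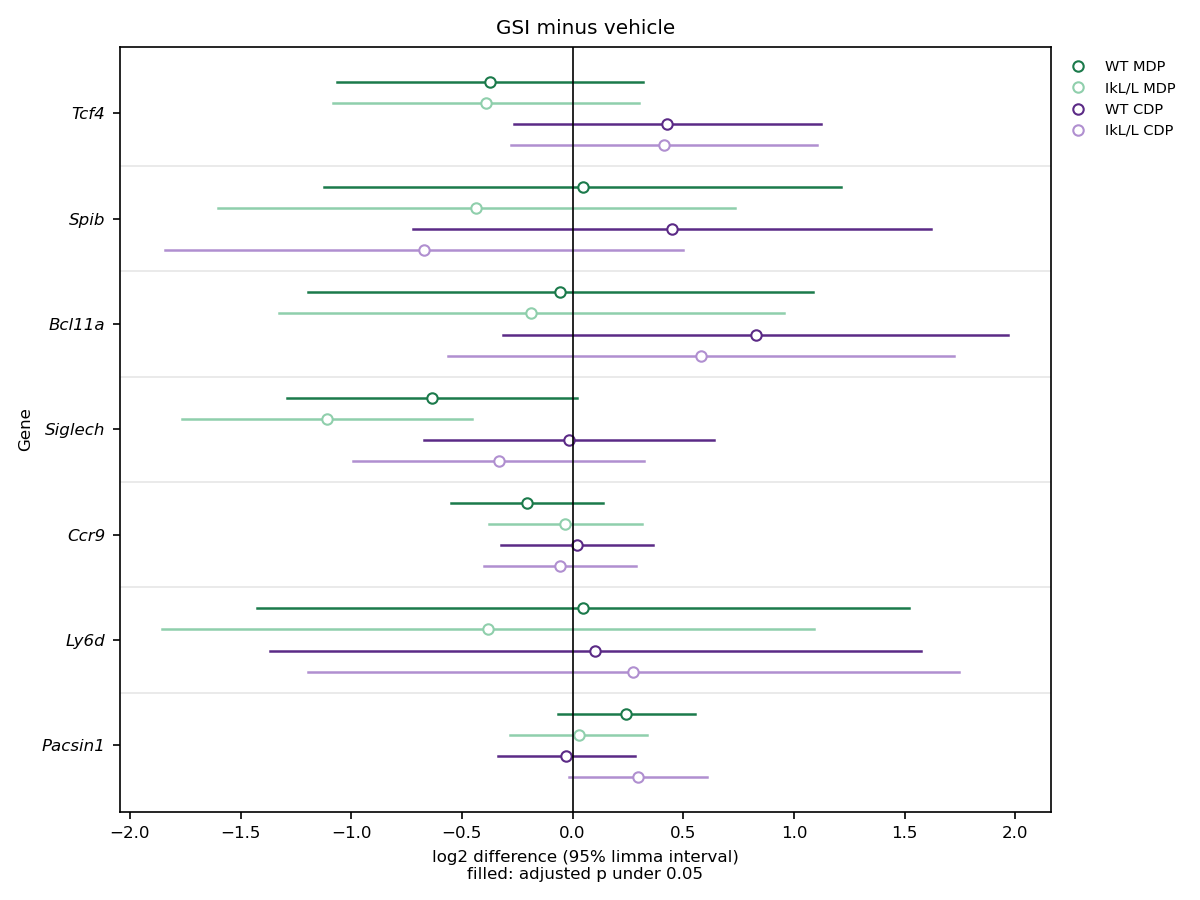
Difference in log2 signal between GSI and vehicle (horizontal axis, points with limma 95% intervals) for the 7 measured genes in WT and IkL/L MDPs and CDPs. No point is filled, that is, none has an adjusted p under 0.05. The Tcf4 points lie left of 0 in MDPs (-0.37 and -0.39) and right of 0 in CDPs (0.43 and 0.41), with intervals that hold 0 and a WT CDP value that is -0.02 without 1 array, and Siglech reaches -1.11 in IkL/L MDPs.

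The patterns of the 7 genes over the 16 arrays were then compared. As a description, with arrays that share groups, Siglech and Ccr9 were most alike (Pearson r = 0.952, n = 16), followed by Tcf4 and Bcl11a (0.901). Ly6d and Pacsin1 (0.331) and Spib and Ly6d (0.349) were least alike. Over all genes, the pair most like each member by Pearson r was Ap1s3 (0.958) and Rtn4rl1 (0.952) for Tcf4, Ust (0.975) and Bach2 (0.97) for Spib, and Dusp10 (0.935) and Osgep (0.933) for Bcl11a. For Siglech it was Sgk3 (0.952) and Ccr9 (0.952), and for Ccr9 it was Siglech and Nccrp1 (0.941).

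The pair most like Ly6d, Cox6a2 (0.93) and Atp1b1 (0.887), stood among the other pDC genes examined here. Cox6a2, a cytochrome oxidase subunit used as a pDC transcript, gave 5.90 and 7.05 in vehicle-treated and 6.34 and 7.68 in GSI-treated WT CDPs, against 5.78 and 5.66, then 5.94 and 5.90, in the matching IkL/L CDPs. The genotypes overlapped by a narrow margin, since the lowest WT array (5.90) lay just below the highest IkL/L array (5.94). Its difference over both treatments was -0.92 ± 0.28 (SE), with limma's adjusted p = 0.104. Pacsin1 was most like Cd3e (0.862) and Rell2 (0.842), at low signal in all arrays.

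Other genes of the pDC program were read from 4 lists that hold 67 genes, 62 of them measured. Averaged over genotype and treatment, 22 rose from MDP to CDP, 5 fell and 35 did not pass, and the median difference was 0.16. Of 17 surface markers 11 rose, led by Cd209d (3.15), the interleukin receptor gene Il7r (2.72), Cd7 (2.55) and the peptidase gene Dpp4 (1.74), and none fell. Of 17 regulators 3 rose: Irf4 (1.96), Irf7 (1.93), which drives interferon production, and the Flt3L receptor gene Flt3 (1.91). Myb, a factor of immature progenitors, fell by 1.73, and Irf8, needed for pDCs and for the cDC1 lineage, fell by 0.55 (adjusted p = 0.0198).

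Among 13 measured genes of nucleic acid sensing and interferon, 4 rose, Irf7 being counted here too, with the RNA sensor genes Ddx58 (1.77) and Ifih1 (1.01) and the endosomal DNA receptor gene Tlr9 (0.55), and Plac8 fell by 0.64. Of 16 other pDC transcripts 5 rose, led by Cox6a2 (0.85), Pltp (0.81) and Blnk (0.75), and Tex2 and Xbp1 fell by 0.72 and 0.23. Xbp1, Irf8 and Tlr9 were named after their values were seen. A list of E protein inhibitors and genes set against the pDC program, which also holds the cDC gene Batf3, had a median of -0.06. Of its 7 measured genes, Id3 (1.66), Id2 (1.30) and Batf3 (0.43) rose and none fell.

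The rise from MDP to CDP was not limited to pDC genes. In the same comparison 12 of 16 cDC markers rose (median 1.12) and 13 of 14 markers of mature DCs rose (median 1.85), beside the median of 1.17 for the 7 genes. Irf4 and Batf3 stand in the cDC list too. Of 15 progenitor markers 6 fell, led by the granule enzyme genes Elane (-4.46) and Mpo (-4.17), and Flt3 rose. Of 14 B cell markers, relevant because Spib, Bcl11a and Ly6d are also B lineage genes, only Fcer2a (0.71) and Cd22 (0.17) rose, and the mean log2 signal of the list stayed between 4.55 and 4.90 in all arrays, with Pax5 means of 3.95 to 4.20 over the 8 groups. None of 11 T and NK cell markers rose and Nkg7 fell, with a mean signal between 3.76 and 4.15. Of 12 monocyte and macrophage markers 3 rose and 1 fell, and of 7 erythroid and megakaryocyte markers 1 rose. The defining progenitor genes were present in all groups, with group means of 9.84 to 10.72 for Csf1r, 6.37 to 9.15 for Flt3 and 5.39 to 7.63 for Kit. The part of other cells in the values of the 7 genes was not tested.

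**Figure D5:**
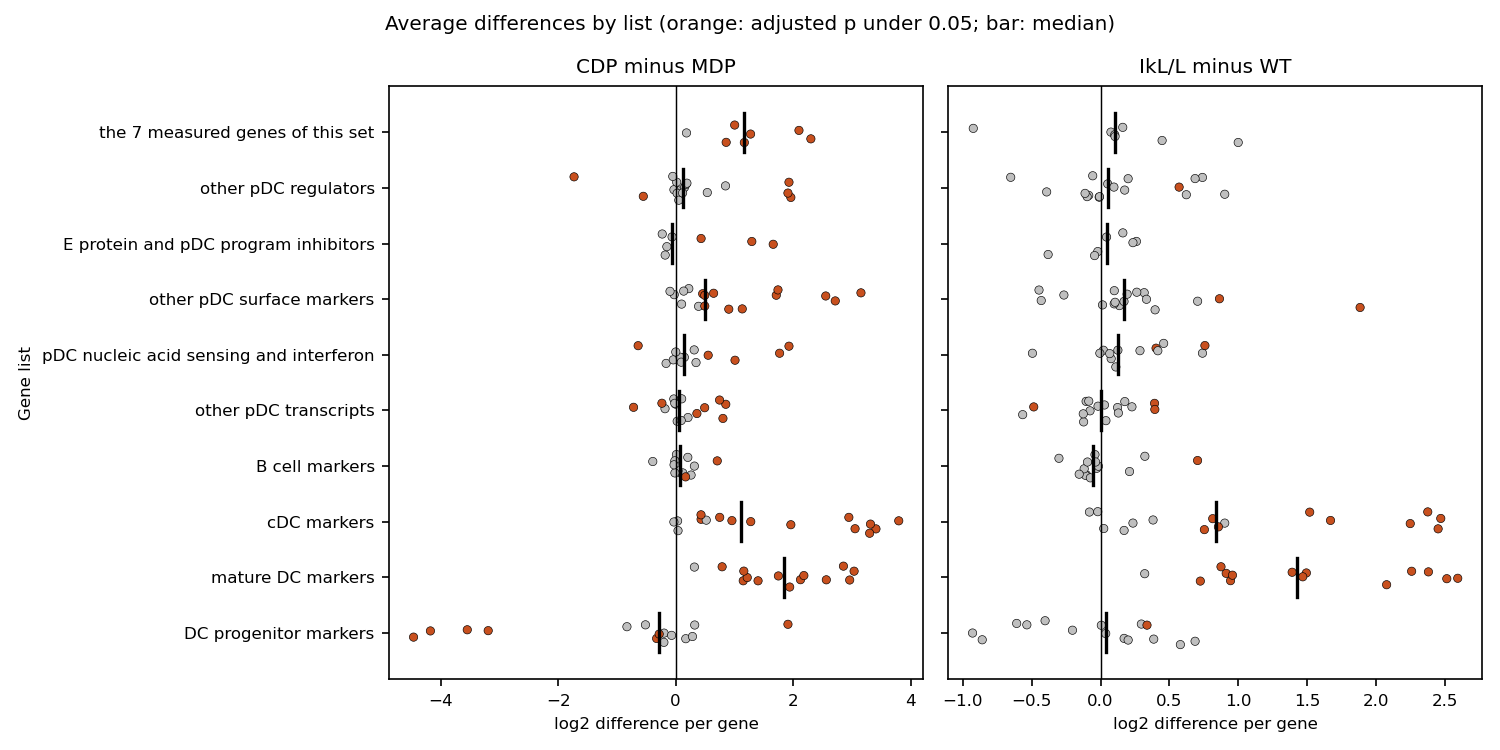
Difference in log2 signal per gene (points) between CDPs and MDPs (left) and between IkL/L and WT cells (right), each averaged over the other factors, for the 7 measured genes and the comparison lists (vertical axis). Orange points have an adjusted p under 0.05 and bars are list medians. On the left the bar of the 7 genes (1.17) lies near that of the cDC markers (1.12) and below that of the mature DC markers (1.85). On the right, of the lists shown, only the cDC and mature DC lists have medians above 0.5. The neutrophil, monocyte and macrophage, T and NK cell, and erythroid and megakaryocyte lists are not shown, and the neutrophil median lies above 0.5 too.

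The same lists were read for genotype. Of the 62 other pDC genes 7 rose in IkL/L cells and 1 fell on average, with a median of 0.10, beside the 6% of all genes called. The largest were Cd209d (1.88), Il7r (0.86) and Ddx58 (0.76), and Tex2 fell by 0.49. None of the 7 genes of the inhibitor list passed. By comparison 9 of 16 cDC markers (median 0.83), 13 of 14 mature DC markers (median 1.43) and 11 of 13 neutrophil markers (median 1.76) rose. Their mean log2 signals in CDPs ran from 8.07 to 8.73 in IkL/L against 5.55 to 5.97 in WT for the mature DC list, and from 8.94 to 10.32 against 7.33 to 7.95 for the neutrophil list. In MDPs the mature DC list ran from 5.29 to 5.68 in IkL/L against 5.06 to 5.12 in WT. The neutrophil list ran from 8.70 to 9.34 against 7.60 to 7.79. Both lists were thus higher in IkL/L cells at both stages. The mature DC list differed more in CDPs than in MDPs, and the Spib and Ly6d differences were also largest in CDPs. The part of these lists in the Spib and Ly6d values was not tested. The B cell list stayed at 4.68 to 4.83 in IkL/L CDPs and 4.58 to 4.90 in WT CDPs. The monocyte and macrophage list ran from 8.26 to 8.91 in IkL/L MDPs against 7.62 to 7.93 in WT MDPs, and overlapped in CDPs. The erythroid and megakaryocyte list ran from 4.54 to 4.79 in IkL/L CDPs against 4.02 to 4.09 in WT CDPs, and overlapped in MDPs. Their part in the Spib and Ly6d values was not tested either. In the GSI average none of the 62 other pDC genes passed in limma, and 17 had an unadjusted p under 0.05. The share of all genes at that unadjusted threshold was not computed.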

How the data were processed

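Total RNA of 16 cultures was hybridised to Affymetrix Mouse Gene ST arrays, and the authors deposited log2 values. Per the labels these came from RMA (background correction, between-array normalization and probe summary) as run by Affymetrix Expression Console 1.4.1. The probe annotation version and the genome build are not given in the sources used here. Of 28188 probe sets, 21789 carried 1 symbol, 1621 several and 4778 none. The probe set with the highest mean was kept for each symbol, giving 19938 genes with no filter on signal. Groups were taken from the labels. One limma model (3.58.1, R 4.3.3) of 8 group means was fitted to all 16 arrays, with 8 residual and 2.35 prior degrees of freedom, eBayes and Benjamini-Hochberg adjustment over all genes, threshold 0.05. The fit was tested on simulated data. The number of arrays limits the precision: an exact permutation of 2 arrays against 2 cannot give a two-sided p below 0.333. The alternatives were a replicate block, only the arrays compared, centring, quantile normalization, a signal filter, the mean of probe sets, trended eBayes, array weights and leaving out each array. The 8 genes, the lists and the rule for named genes (up to 4 a list with the largest change past the threshold, and the 2 most correlated with each member) were chosen with earlier results of these data known. Promoter letters came from RefSeq, GRCm38.p6.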

Additional observations from a re-analysis of the deposited data

How the results depend on the processing

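Of 3565 alternative values of the 140 member results, none of those called reversed, 3437 kept their side of the threshold, 94 lost it and 34 gained it, and 145 values of results not called changed sign.

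Replicate numbers were not taken to pair the samples, since 16 of 28 pairs of groups, not all, correlated above 0.1 (from -0.254 to 0.658). These correlations, of array 2 minus array 1 over all genes, ran from 0.348 to 0.658 between CDP groups. All pairs with GSI-treated IkL/L MDPs were negative (-0.254 to -0.0204). A shared replicate effect among the CDP arrays was therefore not excluded. Vehicle and GSI arrays of the same number correlated at 0.476 in WT MDPs, 0.585 in WT CDPs and 0.658 in IkL/L CDPs, and at -0.02 in IkL/L MDPs. With the replicate number as a block, the genes called by genotype rose from 0 to 1 (Spib) in vehicle-treated CDPs (adjusted p = 0.0181) and from 0 to 1 (Spib) in the average (0.0123). Tcf4 also passed between CDPs and MDPs in GSI-treated WT cells (0.0389), and the block moved no other count by over 1.5 times.

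With only the arrays compared, 0 genes were called between WT CDPs and MDPs with vehicle (1 before), 0 with GSI (2 before) and 0 by genotype in CDPs over both treatments (1 before). With the filter of a log2 value of at least 5 in at least 2 arrays, 10008 genes and 5 members were left, without Ccr9 and Pacsin1. It called 1 gene by genotype in vehicle-treated CDPs and 1 in the average (Spib), 2 in CDPs over both treatments (Spib, Ly6d) and 1 between GSI-treated WT CDPs and MDPs. Array weights called 0 between vehicle-treated WT CDPs and MDPs, 1 with GSI and 2 by genotype in CDPs over both treatments. The following settings were added after seeing the data. Without both WT CDP arrays 1, genotype called 1 gene (Ly6d) in vehicle-treated CDPs, in GSI-treated CDPs and in the average, its difference between CDPs and MDPs called 1 (Ly6d), and CDPs against MDPs called 2 in vehicle-treated and 6 in GSI-treated WT cells. Without both WT CDP arrays 2, the averaged genotype effect called 3 (Spib, Bcl11a, Ly6d) and GSI-treated WT CDPs against MDPs 1. The cause of these changes was not tested.

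Leaving out 1 array at a time, the counts between CDPs and MDPs ran from 0 to 1 and from 0 to 4 in WT cells with vehicle and GSI, from 0 to 3 and from 0 to 4 in IkL/L cells, and from 4 to 6 in the average. By genotype they ran from 0 to 1 in vehicle-treated CDPs, in GSI-treated CDPs and in the average, and from 0 to 2 in CDPs over both treatments. By GSI they ran from 0 to 1 in the average. All other counts stayed at 0.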
